A study of Mus musculus with 3 samples.

Results

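The genes described here are Atf4, which encodes the transcription factor at the centre of the integrated stress response, and 9 genes that act downstream of it or feed back on it: Ddit3, Ddit4, Sesn2, Chac1, Trib3, Asns, Nupr1, Atf3 and Ppp1r15a. They were chosen by name, with earlier results of these data known. Every probe set whose only gene symbol was 1 of these 10 was taken, which gave 17 of the 45101 probe sets on the array. The cells were WR19L, a mouse T-lymphoma cell line from the BALB/c strain, grown untreated in RPMI1640 medium with fetal calf serum. Of the 3 arrays, the first held parental cells, the second held flippase-deficient WR19L cells (DKO) that stably expressed human ATP11A in its wild-type form, and the third held DKO cells that stably carried the mutant form Q84E. The ATP11A protein is a flippase of the P4-ATPase family, which turns phospholipids toward the cytosolic side of the cell membrane. The DKO line with no transgene was not analysed here, so in a ratio over parental cells the knockout, the transgene and the derivation of the line cannot be told apart. Whether each DKO line grew from a single clone, and which promoter drives the transgene, is not given in the sources used here.

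In the integrated stress response, kinases that sense amino acid shortage, misfolded proteins, heme deficiency or double-stranded RNA phosphorylate the initiation factor eIF2alpha. General protein synthesis then falls while the Atf4 mRNA is translated more, so the ATF4 protein can increase without a change in its mRNA, which is the quantity an array measures. ATF4 binds, mostly as a dimer with a C/EBP protein, to a composite DNA element known as CARE and raises the transcription of genes for amino acid supply, redox balance and growth control. Ddit4 and Sesn2 inhibit mTORC1, the kinase complex that drives growth when amino acids are plentiful, and Ppp1r15a directs a phosphatase to eIF2alpha and so ends the response. Dividing T cells use this programme to supply themselves with amino acids.

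The promoters of the members were read first, because they show the DNA through which ATF4 and related factors can act. All 10 members had a window in the RefSeq table of build GRCm38.p6, from 250 bases before to 50 bases after the annotated gene start. The CARE core was searched as TGATGNAA, a related ATF/CRE site as TGACGCAA, the cyclic AMP response element (CRE) as TGACGTCA and the core of the hypoxia response element as ACGTG, each on both strands. In the lines below the matches to CARE, ATF/CRE, CRE and the hypoxia core are in capitals for Ddit4, Nupr1 and Chac1. For Asns and Atf3 the CARE match is in capitals, and for Ppp1r15a the CRE. Ddit4 and Nupr1 are shown as the 2 members furthest apart between arrays, Chac1 as the member with 2 ATF-type matches, and the others as short stretches around their match.
Ddit4: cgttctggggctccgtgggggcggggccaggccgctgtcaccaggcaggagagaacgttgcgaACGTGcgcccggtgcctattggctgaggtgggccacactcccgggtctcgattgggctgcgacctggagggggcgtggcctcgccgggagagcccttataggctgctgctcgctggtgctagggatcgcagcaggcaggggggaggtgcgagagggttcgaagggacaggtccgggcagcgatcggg
Nupr1: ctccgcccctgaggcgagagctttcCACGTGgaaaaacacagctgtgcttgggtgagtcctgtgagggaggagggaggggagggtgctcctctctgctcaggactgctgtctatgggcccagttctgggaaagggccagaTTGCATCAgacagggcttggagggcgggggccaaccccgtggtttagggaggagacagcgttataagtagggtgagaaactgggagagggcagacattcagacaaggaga
Chac1: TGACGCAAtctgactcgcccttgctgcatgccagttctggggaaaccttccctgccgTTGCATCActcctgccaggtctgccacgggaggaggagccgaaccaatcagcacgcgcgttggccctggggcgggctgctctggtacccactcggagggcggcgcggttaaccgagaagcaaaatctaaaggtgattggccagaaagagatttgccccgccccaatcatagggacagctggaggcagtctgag
Asns: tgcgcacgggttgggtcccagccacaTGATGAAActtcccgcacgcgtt
Atf3: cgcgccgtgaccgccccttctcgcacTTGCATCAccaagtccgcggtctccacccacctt
Ppp1r15a: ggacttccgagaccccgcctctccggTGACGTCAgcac

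These stretches are printed 5′ to 3′ along the gene, and none reaches past the annotated start. They lie at chr10:59951771-59952020 on the minus strand for Ddit4, chr7:126625471-126625720 on the minus strand for Nupr1 and chr2:119350992-119351241 on the plus strand for Chac1. The stretch of Asns is chr6:7693210-7693258, that of Atf3 chr1:191183410-191183469 and that of Ppp1r15a chr7:45526269-45526306, all on the minus strand. A CARE match was found in 5 of the 10 member windows, against 3.97% of the 32851 windows in the table. Its first base lay 193 bases before the start in Chac1, 110 before it in both Nupr1 and Atf3, and 23 before it in Asns. In Trib3 the match, TTACATCA, began at base 15 after the start. The ATF/CRE letters were found in Chac1 alone among the members, 250 bases before the start, and in 0.490% of all windows. Ppp1r15a was the member with a CRE, 12 bases before its start, and 1.79% of all windows hold one. The hypoxia core occurred in 5 members, Ddit3, Ddit4, Asns, Nupr1 and Ppp1r15a, and in 19.6% of all windows. In Nupr1 the 2 hypoxia core matches overlap in 1 palindrome, whereas the other motifs did not overlap each other in these members. A match is a run of letters and not a shown binding site, and windows without a match, such as those of Atf4 and Sesn2, say nothing of sites elsewhere.

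**Figure D1:**
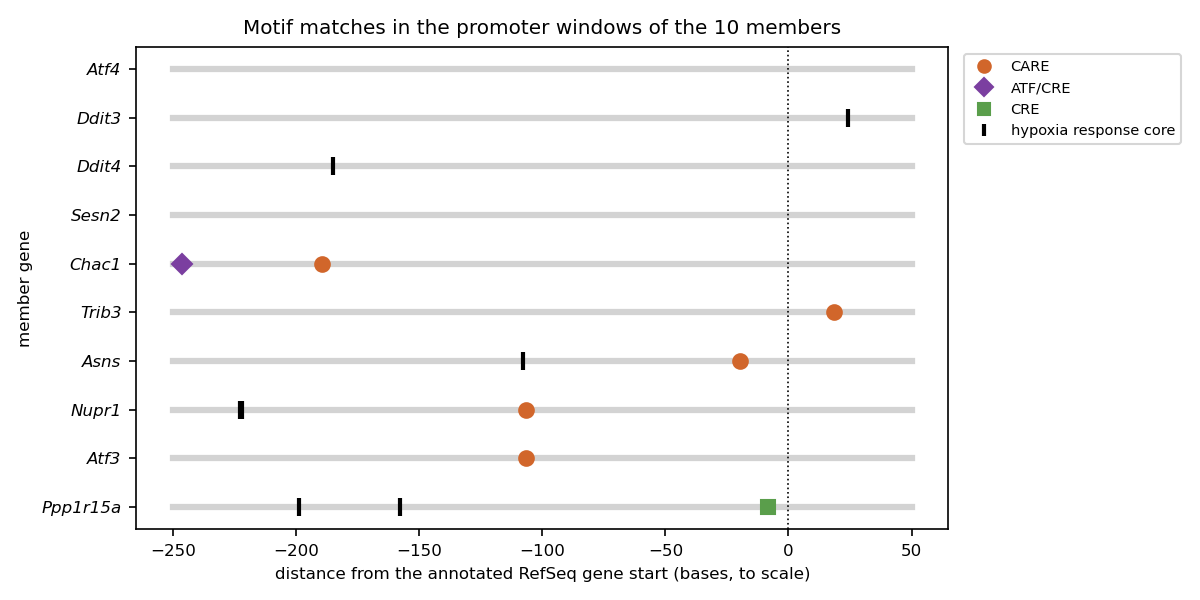
Positions of the motif matches in the promoter windows of the 10 member genes, with 1 grey line per gene and the distance from the annotated RefSeq start in bases on the horizontal axis. CARE matches (circles) lie in 5 genes, at 193 bases before the start in Chac1 and at base 15 after it in Trib3 at the extremes, and the line of Sesn2 and that of Atf4 carry no symbol.

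Each value below is a MAS5 signal, a brightness on a linear scale that the authors had scaled to the same trimmed mean on every array. Each group had 1 array, so no value has a replicate error, no test between groups was possible, and the number of arrays limits the precision. Signals under the median of their own array, 50.3 for parental cells and 50.5 and 55.5 for the lines with wild-type and Q84E ATP11A, were treated as being at that floor. Where 3 signals of a probe set are given in a row, they are those of parental, wild-type and Q84E cells, in that order. As a guide to technical error, pairs of probe sets of 1 gene were compared over all genes. Their log2 ratios differed with an SD per probe set of 0.32 to 0.35 where signals lay from the 50th to the 75th percentile, 0.16 to 0.18 from there to the 90th, and 0.092 to 0.10 above that. That error leaves out differences between cultures. In RNA from bulk cells, a change in every cell and a change in the share of cells that express a gene cannot be told apart. Of 10 T cell markers with a probe set of their own, 7 were at or above the floor on every array. Cd3d was at 4272 to 6976 and Thy1 at 3091 to 4535, while Cd3e, Cd4 and Cd5 were under the floor on all. The summed signal of the 10 was lowest with wild-type ATP11A, at 12782 against 19098 in parental and 17397 in Q84E cells, and its part in the ratios below was not tested. On every array 5 of the 10 T cell markers were at or above the 75th percentile. Markers of B, myeloid, NK, erythroid, fibroblast and epithelial cells all stayed under it on every array, but some reached the floor. Among these, named here after their values were seen, Csf1r gave 99.8, 158 and 114 and Epor 138, 112 and 107. Cd8a, among the 7 T cell markers, gave 83.7, 50.8 and 57.3. The ratio of the 3′ to the 5′ control probe set was 1.24 to 1.27 for actin and 0.72 for Gapdh, so it hardly differed between arrays.

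The response's own transcription factor had its brightest probe set above the 90th percentile of every array, at nearly the same signal in the 3 lines. That Atf4 probe set gave signals of 14108 in parental cells, 13269 with wild-type and 15093 with Q84E ATP11A. A less specific probe set, whose probes can match other transcripts, gave 3631, 3957 and 3852. The remaining Atf4 probe set lay under the floor on all 3 arrays, at 8.40, 34.1 and 5.25, and gave no measured ratio. The log2 ratio of Q84E over wild-type was 0.19 by the brightest probe set and -0.039 by the other, so the sign of the Atf4 difference was not settled. Over parental cells, the brightest probe set had -0.089 with wild-type and 0.097 with mutant ATP11A. The former turned to 0.014 when the probe sets were averaged, where the one under the floor entered at the ratio of the floors, 0.0057. The latter turned to -0.045 when the arrays were set to a common median.

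Ddit3 and Atf3 encode the other bZIP transcription factors among the members. Ddit3, which encodes CHOP, a factor linked to cell death under prolonged stress, was the compared member that was lowest with Q84E. Its brighter probe set gave 201 in parental cells, 301 with wild-type and 184 with Q84E ATP11A. The wild-type array stood highest, 0.58 above parental on the log2 scale, and the Q84E signal was 1.64-fold lower than the wild-type one. Parental and Q84E cells lay close together, with a log2 ratio of -0.13 for Q84E over parental, less than the probe set error of 0.35 there. The dimmer probe set gave 58.0, 66.8 and 28.0, with the Q84E signal under the floor, so it has the same order but gives a bound there. For Q84E over wild-type, the log2 ratio of the brighter probe set was -0.71, and 131 of the 11617 compared genes had a lower one. It ranged from -0.85 to -0.49 under 8 alternatives of the processing. At this brightness the probe set error was 0.32, so the gap is somewhat over 2 such SDs. Atf3, an immediate stress-induced repressor and activator, gave 19.6, 29.95 and 12.8 with its single probe set. All 3 signals lay under the floor, and Atf3 therefore entered no comparison.

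Ddit4, also called REDD1, was the member furthest apart between the arrays. It acts through the TSC complex to inhibit mTORC1, and it is also a known target of hypoxia-inducible factors and of the glucocorticoid receptor. Its single probe set gave 1562 in parental cells, 2261 with wild-type and 5991 with Q84E ATP11A. The Q84E array was far above both others, and the wild-type array was above the parental one. The log2 ratio was 1.41 for Q84E over wild-type, a 2.65-fold difference. Against parental cells it was 0.53 with wild-type ATP11A and 1.94, or 3.84-fold, with the mutant. These differences are large beside the probe set error of 0.16 to 0.18 at that brightness. Of the 11617 genes compared, 26 had a higher ratio than Ddit4 for Q84E over wild-type and 15 for Q84E over parental. Its log2 ratio of Q84E over wild-type stayed between 1.27 and 1.44 under 9 alternatives.

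Sesn2 encodes sestrin 2, a leucine sensor that holds mTORC1 inactive through the GATOR2 complex. Its brighter probe set gave 367 in parental cells, 292 with wild-type and 515 with Q84E ATP11A. The dimmer one gave 307, 248 and 348. In both, Q84E was highest and wild-type ATP11A lowest. The brighter probe set had a log2 ratio of 0.82 for Q84E over wild-type and the dimmer one 0.49, a gap of 0.33 at a brightness where the error was 0.32. Over parental cells the brighter one had 0.49 with Q84E and -0.33 with wild-type ATP11A. The paralog Sesn1, better known as a p53 and FOXO target, gave 1488, 1709.5 and 1763, with a log2 ratio of 0.044 for Q84E over wild-type. A dimmer Sesn1 probe set gave 659, 939 and 766 and the opposite sign, -0.30. Sesn3 gave 300.4, 259 and 358 by its brighter probe set, with a log2 ratio of 0.47 for Q84E over wild-type against 0.056 by the other. The Ddit4 paralog Ddit4l was under the floor on all arrays.

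Of the metabolic targets, Chac1, Trib3 and Asns had different sizes of difference with the same sign for Q84E over wild-type. Chac1 encodes an enzyme that degrades glutathione and has an ATF/CRE and a CARE match in the promoter printed above. Its signals were 1188 in parental cells, 991 with wild-type and 1590.0 with Q84E ATP11A. The log2 ratio was 0.68 for Q84E over wild-type. Against parental cells it was -0.26 with wild-type and 0.42 with mutant ATP11A. Chac2, its paralog with a constitutive role in glutathione turnover, gave 870.3, 1138 and 1323, and here the parental array was lowest.

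Trib3, a pseudokinase that binds ATF4 and restrains it, gave 720.2, 643 and 725 by its brighter probe set and 685, 563 and 709.5 by the other. Parental and Q84E cells lay close together and wild-type ATP11A cells lower. The log2 ratios of Q84E over wild-type were 0.17 and 0.33, and those of Q84E over parental 0.0087 and 0.051. The brighter probe set's ratio over parental cells turned to -0.13 with a common median, and also changed sign with quantile normalization. Trib1, a pseudokinase of the same family, had another order, with 641, 289 and 255. It was 2.22-fold below the parental signal with wild-type ATP11A and 2.52-fold below it with the mutant. Trib2 gave 3182, 2526 and 3239, an order like that of Trib3.

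Asns encodes asparagine synthetase, and its promoter holds a CARE match close to the start. Its brighter probe set gave 12429 in parental cells, 12524 with wild-type and 15172 with Q84E ATP11A, and the less specific one 8664, 9362 and 11560.4. The parental and wild-type signals were close and the Q84E signal was above both. Log2 ratios of Q84E over wild-type were 0.28 and 0.30, against an error of 0.098 at this brightness. With a common median the log2 ratio of the brighter probe set was 0.14.

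Nupr1, a small chromatin-associated stress protein, separated all 3 lines. Its brighter probe set gave 422 in parental cells, 870.4 with wild-type and 1222 with Q84E ATP11A. The other gave 431, 761 and 1159.9. Both put parental lowest and Q84E highest. Wild-type ATP11A over parental cells had log2 ratios of 1.05 and 0.82. The values were 0.49 and 0.61 for Q84E over wild-type, and 1.54 and 1.43 when Q84E was set against parental cells. Against parental cells, the brighter probe set was thus 2.06-fold higher with wild-type ATP11A and 2.90-fold higher with the mutant. Of the 11617 genes, 56 had a higher ratio in the former comparison and 42 in the latter. The brighter Nupr1 probe set is of a type (_x_at) that can match transcripts of other genes. The dimmer one is of a type (_a_at) that can match several transcripts of the same gene. The annotation used gave the symbol Nupr1 to no further probe set.

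Ppp1r15a encodes GADD34, the inducible subunit that directs protein phosphatase 1 to eIF2alpha. It gave 389 in parental cells, 476 with wild-type and 524 with Q84E ATP11A, the same order as Nupr1 but with smaller steps. Its log2 ratio was 0.14 for Q84E over wild-type, and over parental cells it was 0.29 with wild-type and 0.43 with Q84E ATP11A. The step from wild-type to Q84E is less than the probe set error of 0.16, and with a common median it was 0.0017. The constitutive counterpart Ppp1r15b gave 2768, 2988 and 3185, also in that order.

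**Figure D2:**
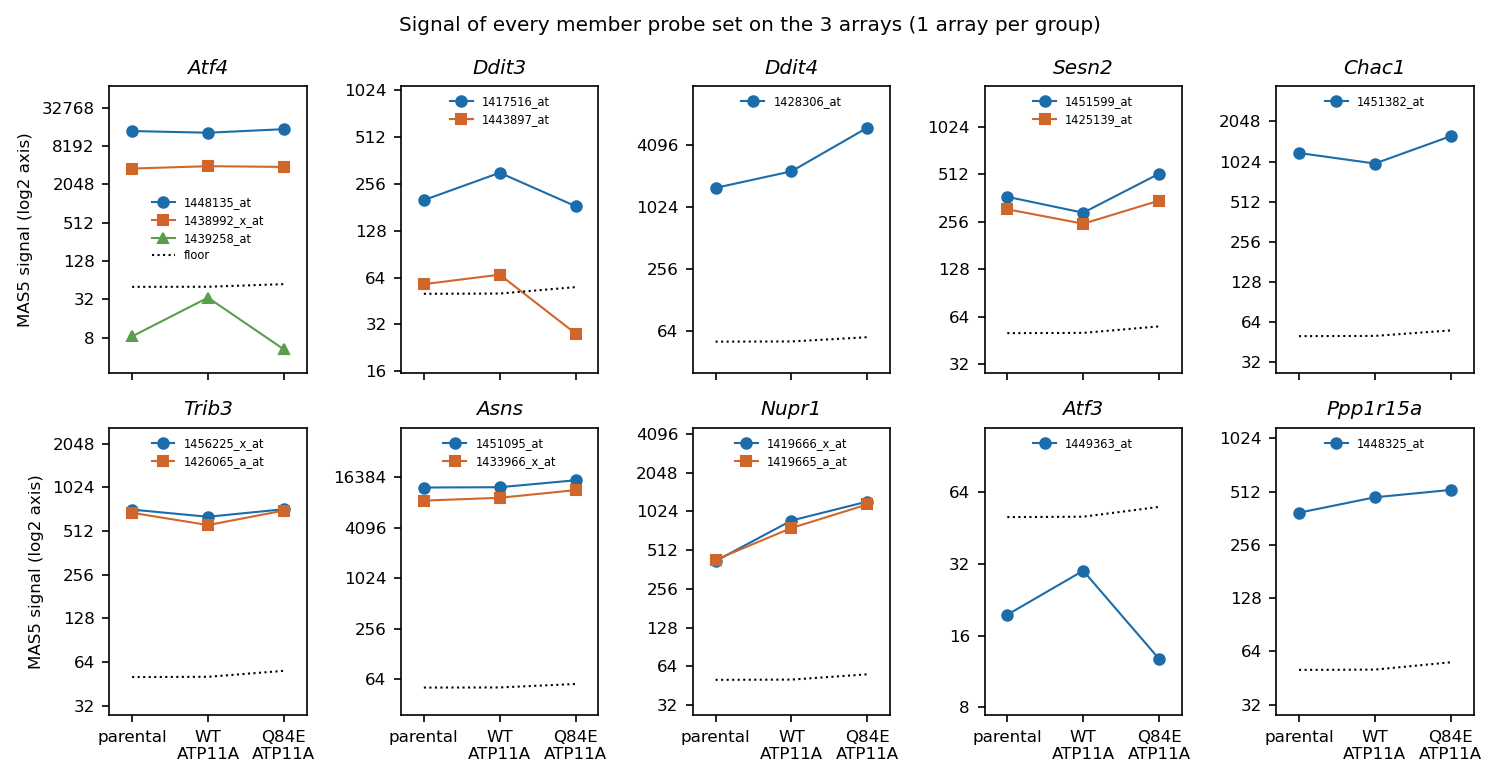
MAS5 signal of each of the 17 member probe sets on the 3 arrays, with 1 panel per gene, a log2 vertical axis, and the floor of each array as a dotted line. Ddit4 goes from 1562 to 5991 and both Nupr1 probe sets are highest with Q84E ATP11A, while Ddit3 is highest with wild-type ATP11A and Atf3 lies under the floor.

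Across the set, 9 of the 10 genes and 15 of the 17 probe sets reached the floor on at least 1 array and were compared. The members and the lists below were chosen with earlier results of these data known. Their counts and medians beside all genes therefore describe the data and do not test it. The Q84E array was the highest for 8 of the 9 genes, against 42.9% of all 11617 compared genes, and Ddit3 was the exception. With quantile normalization it was the highest for 7 of the 9, and with a common median for 6, as Trib3 in both and Atf4 in the latter were then highest in parental cells. The share of all genes was 37.2% and 24.5% in these settings. Parental cells were the lowest for 4 of the 9, against 39.1% of all compared genes, and wild-type ATP11A cells for another 4, against 30.0%. Sesn2, Chac1, Trib3 and Atf4 were lowest with wild-type ATP11A. Ddit4, Asns, Nupr1 and Ppp1r15a were lowest in parental cells, Asns by a log2 difference of 0.011.

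At least 2-fold higher levels with Q84E than with wild-type ATP11A were found for 1 of the 9 genes, Ddit4, beside 1.05% of all compared genes. None of the 9 was 2-fold lower, beside 0.318% of all. For wild-type over parental, Nupr1 was the 1 gene past 2-fold higher, beside 0.56% of all genes, and 0 were lower, beside 0.912%. Its other probe set fell short of 2-fold. For Q84E over parental, Ddit4 and Nupr1 were past 2-fold higher, beside 1.64% of all genes, and 0 were lower, beside 0.792%. The background split for Q84E over wild-type was 122 genes higher and 37 lower, and became 69 and 65 with quantile normalization and 66 and 67 with a common median. For Q84E over parental it was 190 and 92, and became 119 and 119 with the former and 111 and 124 with the latter.

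The median log2 ratio of the 9 members was 0.28 for Q84E over wild-type, beside 0.046 for all compared genes, with 8 members above 0 against 58.1% of all genes. For wild-type over parental it was 0.011 beside 0.0057, with 5 of 9 above 0 against 54.2%. For Q84E over parental it was 0.42 beside 0.068, with 8 of 9 above 0 against 59.7%. That count became 7 of 9, against 50.3% of all genes, with quantile normalization and 6 of 9, against 36.9%, with a common median, as Trib3 and then also Atf4 fell below 0. The 3 comparisons share arrays, so they are not independent of each other. A common median lowered the log2 ratios of Q84E over wild-type so that the median over all genes fell by 0.14. No member's sign for Q84E over wild-type turned under the alternatives tried. Atf4, read by its brightest probe set, was at 0.049 under a common median, where 33.2% of all genes were above 0. With the mean of its probe sets Atf4 was at 0.095, where the one under the floor entered at the ratio of the floors, 0.14.

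**Figure D3:**
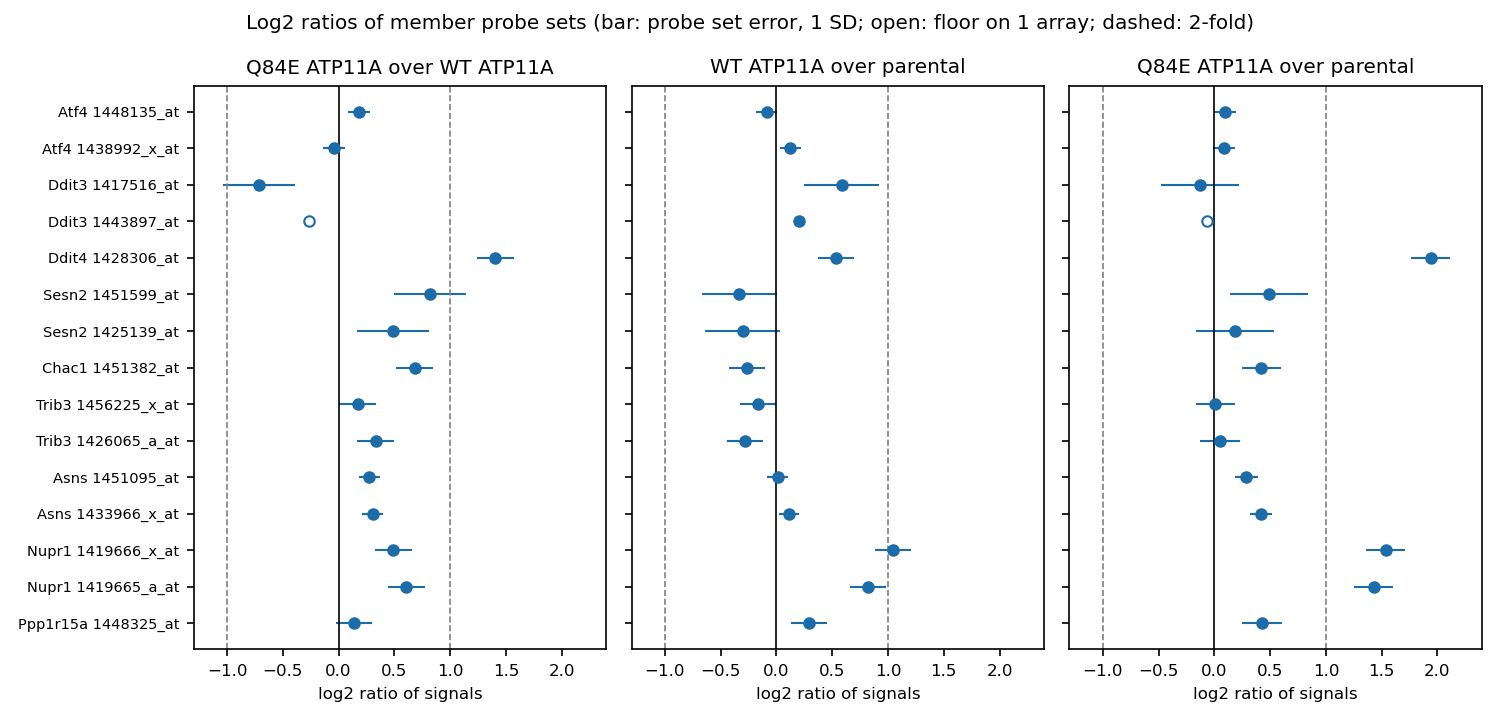
Log2 ratios of the 15 compared member probe sets in the 3 comparisons, with bars of 1 SD of the probe set error at that brightness, open circles where 1 signal lay under the floor, and dashed lines at 2-fold. Ddit4 lies past 2-fold in both comparisons of Q84E cells, at 1.41 and 1.94, and Ddit3 at -0.71 is the lowest for Q84E over wild-type. The dimmer Ddit3 probe set has no bar because the error was not estimated for probe sets under the floor on any array.

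Upstream of Atf4 stand the kinases and the eIF2 machinery, and all 17 genes of that list were compared. Their median log2 ratio of Q84E over wild-type was -0.016, beside 0.046 for all compared genes, with a range from -0.22 to 0.26. None was past 2-fold in any of the 3 comparisons, which is near the background. Of all genes, 1.05% were 2-fold higher and 0.318% lower for Q84E over wild-type. The shares were 0.56% and 0.912% for wild-type over parental, and 1.64% and 0.792% for Q84E over parental. Eif2ak1, the heme-regulated kinase HRI, gave 566 in parental cells, 409 with wild-type and 489.5 with Q84E ATP11A, lowest with wild-type ATP11A in all 3 of its compared probe sets. Eif2ak2, the double-stranded RNA-activated kinase PKR, gave 392, 360.1 and 321 by its brightest probe set, while another probe set had the opposite order. Eif2ak3, the endoplasmic reticulum kinase PERK, gave 1006, 1208 and 1258. Eif2ak4, the amino acid sensor GCN2, gave 251, 283 and 304. Of subunits of eIF2B, the exchange factor that phosphorylated eIF2alpha blocks, Eif2b4 had a log2 ratio of -0.22 for Q84E over wild-type and Eif2b2 had -0.30 for Q84E over parental. Ppp1cb, a catalytic subunit of protein phosphatase 1, was at 0.26 for wild-type over parental.

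Among 21 compared bZIP partners and related factors, 0 were past 2-fold for Q84E over wild-type, beside 1.05% of all genes higher and 0.318% lower, and 1 became higher and 1 lower with no floor. Those were Jun and Batf3, named here after their values were seen, whose Q84E signals lay under the floor. Batf3 was also past 2-fold lower with the floor at the 25th percentile. Atf5, a factor translated under stress like Atf4, gave 311, 647 and 636 and was thus 2.08-fold higher in wild-type ATP11A cells and 2.04-fold higher in Q84E cells than in parental cells. The value for Q84E cells fell short of 2-fold under both other scalings. With an offset added to each signal before the log, Atf5 was not past 2-fold over parental cells in either line. Fosl2, named here after its values were seen, was the other gene past 2-fold for wild-type over parental, with a parental signal under the floor. Its other probe set gave 93.7, 82.1 and 45.2, a log2 ratio of -0.19 in that comparison. Of the 21 genes, 2 were thus past 2-fold higher for wild-type over parental in the main setting, beside 0.56% of all genes. That count depended on the processing. It became 0 with the offset and 1 with the mean of all probe sets. It was also 1 without probe sets named _s_at, _x_at or _a_at, and 3 with a lower floor or none. For Q84E over parental the count in the main setting was 1, beside 1.64%. None was past 2-fold lower over parental cells, beside 0.912% of all genes with wild-type and 0.792% with Q84E ATP11A. Atf6, a sensor of endoplasmic reticulum stress, had a log2 ratio of 0.45 for wild-type over parental. The repressor-type factor Jdp2 had 0.53 for Q84E over parental. For Q84E over wild-type the named genes were Mafg, a small Maf protein, at -0.34 and Batf, a factor of activated T cells, at 0.31.

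Of the amino acid supply genes, 14 enzymes for serine, glycine, proline and folate were compared. Their median log2 ratio of Q84E over wild-type was 0.064, with 9 above 0, or 64.3%, beside 58.1% of all compared genes. Among the 9 is Cbs, named here after its values were seen, whose wild-type and Q84E signals, 39.8 and 41.8, were both under the floor. Its ratio of 0.14 is thus only that of the floors. None of the 14 was past 2-fold by its brightest probe set, beside 1.05% of all genes higher and 0.318% lower. Shmt2, mitochondrial serine hydroxymethyltransferase and named here after its values were seen, was past 2-fold higher with the mean of its probe sets. Its brightest probe set gave 9137, 9456 and 10361, a log2 ratio of 0.13 for Q84E over wild-type, and a further bright one also had 0.13. Its 2 dimmer probe sets, of a type that can match other transcripts, gave 241, 79.4 and 462 with a log2 ratio of 2.54, and 91.2, 101 and 530 with 2.39. Cth, the last enzyme of the pathway that makes cysteine, gave 2337, 2349 and 3582, with Q84E 1.52-fold above wild-type. Pck2, mitochondrial phosphoenolpyruvate carboxykinase, gave 3052, 3605 and 4931, and its dimmer probe set followed the same order. Got1, an aspartate aminotransferase, went the other way, with 3483, 3225 and 2413. Its log2 ratio was -0.11 for wild-type over parental, -0.42 for Q84E over wild-type, the lowest of the list, and -0.53 for Q84E over parental. The 19 aminoacyl-tRNA synthetase and tRNA export genes had a median of 0.025, none past 2-fold beside the same background, and a range from -0.22 to 0.22 for Q84E over wild-type. The furthest of those named were Sars at 0.22 and Rars at -0.18. Over parental cells, Wars was at -0.20 with wild-type and -0.25 with Q84E ATP11A, Yars at -0.20 with wild-type and Cars at 0.26 with Q84E. Of 11 amino acid transporters, 9 were above 0 for Q84E over wild-type, or 81.8% beside 58.1% of all compared genes, with a median of 0.12. None was past 2-fold, beside the 1.05% of genes higher and 0.318% lower. Slc6a9, a glycine transporter, gave 483, 437 and 759, so Q84E was 1.74-fold above wild-type, and 0.38 on the log2 scale by its other probe set. Slc7a3, a transporter of cationic amino acids, gave 2762, 3072 and 4142. Slc43a1, a transporter of large neutral amino acids, was at -0.16 for wild-type over parental.

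The mTORC1 control genes, to which Ddit4 and Sesn2 are related by function, had the widest range of ratios among these lists for Q84E over wild-type, from -0.74 to 0.87. The lower end was Rragd, a dim gene at a brightness where the probe set error was 0.32. Of 25 compared, 18 were above 0, or 72% beside 58.1% of all genes, with a median of 0.068 beside 0.046. None was past 2-fold, against 1.05% of all genes higher and 0.318% lower, and Txnip became so with the mean of its probe sets. Txnip, an arrestin-like protein that binds thioredoxin and limits glucose uptake, gave 304, 441 and 808. Q84E was 1.83-fold above wild-type and 2.66-fold above parental cells, and its dimmer probe set gave 94.0, 200.3 and 492. Deptor, an inhibitor that binds mTOR itself, gave 347, 431 and 641, and its log2 ratio of Q84E over parental was 0.89. Tsc2, part of the complex through which Ddit4 acts, gave 547, 506 and 356, so Q84E was 1.42-fold below wild-type. Rragd, a Rag GTPase named here after its values were seen, was the 1 gene past 2-fold lower for Q84E over parental, beside 0.792% of all genes. Its signals were 135, 108 and 64.5, and it fell short of 2-fold with log2(signal + 50) and with the mean of its probe sets. Txnip was the 1 gene past 2-fold higher in that comparison, beside 1.64% of all genes.

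Of 25 other stress, death and autophagy targets, 18 were above 0 for Q84E over wild-type, again 72% beside 58.1%, with a median of 0.19 beside 0.046. None was past 2-fold, beside 1.05% of all genes higher and 0.318% lower. With a lower floor or none, Cdkn1a, an inhibitor of the cell cycle named here after its values were seen, at 54.8, 24.5 and 57.7, became past 2-fold higher. Stc2, a secreted glycoprotein induced by ATF4, gave 948, 987 and 1504, and all 3 of its probe sets had Q84E above wild-type, at log2 ratios of 0.61, 0.63 and 0.74. Fgf21, a stress-induced hormone, gave 266, 442 and 626, the same order as Nupr1, and was 2.35-fold higher in Q84E than in parental cells. Btg1, an antiproliferative gene of resting lymphocytes, gave 478, 696 and 1051, with Q84E above parental cells by 1.14 on the log2 scale. It fell short of 2-fold with a common median, with the mean of its probe sets, and without probe sets named _s_at, _x_at or _a_at. Fgf21 and Btg1 were the 2 of the 25 past 2-fold higher for Q84E over parental, beside 1.64% of all genes. Trib1, described above, was in the main setting the 1 gene of this list past 2-fold lower over parental cells in either DKO line. Of all genes, 0.912% were so with wild-type and 0.792% with Q84E ATP11A. With the mean of its probe sets, the other of them dim, Trib1 was not past 2-fold. Hmox1, named here after its values were seen, was past 2-fold lower for Q84E over parental in 2 settings. Its log2 ratio was -1.06 both with quantile normalization and with a common median. With a lower floor or none, Cdkn1a was past 2-fold lower for wild-type over parental, at -1.16.

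**Figure D4:**
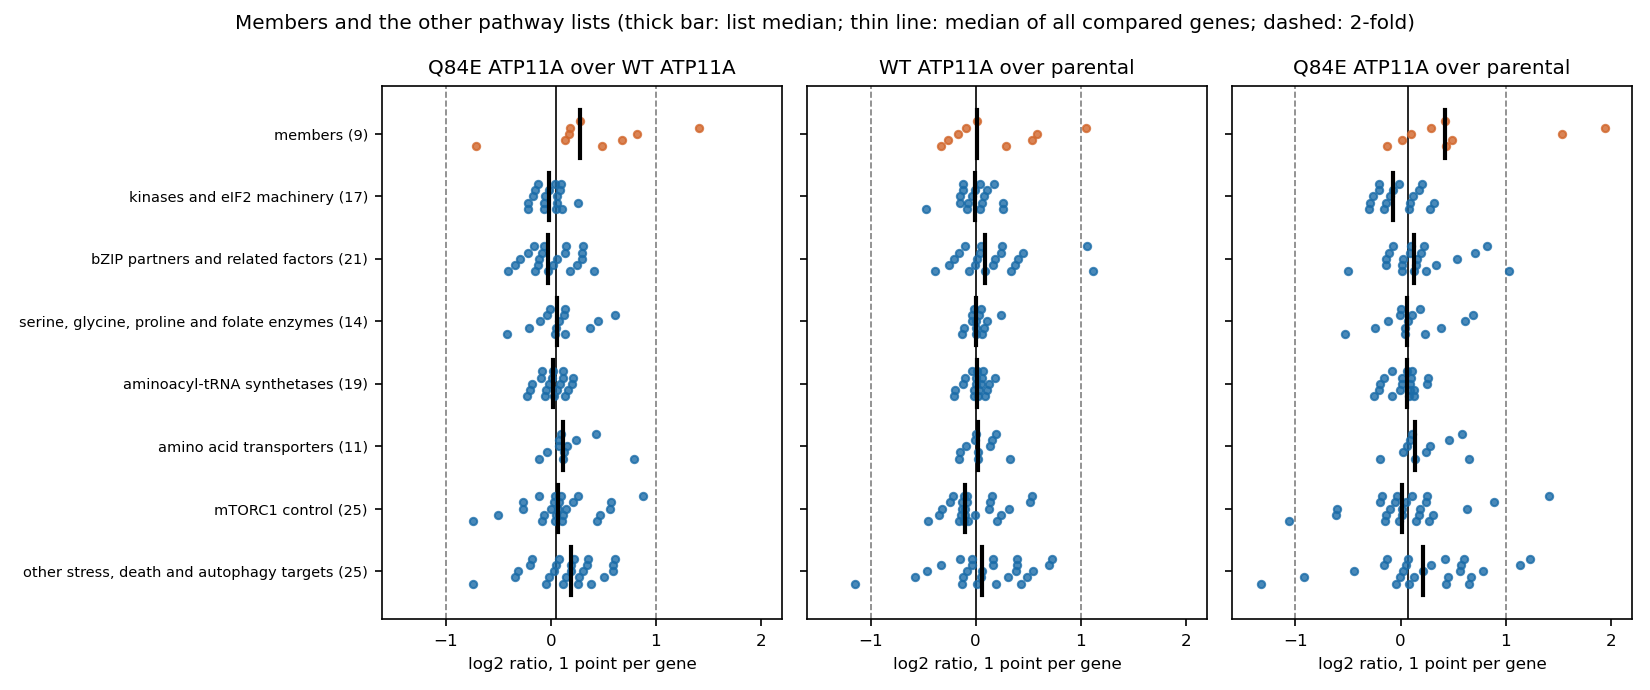
Log2 ratio of each compared gene (1 point per gene) for the 9 members and 7 lists of other genes of the pathway, in the 3 comparisons, with each list's median as a thick bar, the median of all compared genes as a thin line and 2-fold as dashed lines. The member median is 0.28 for Q84E over wild-type, and the medians of the other lists range from -0.026 to 0.19.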

How the data were processed

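Signals of 3 arrays were used, 1 per group. Each deposited value is an intensity, on a linear scale, of 1 probe set. The authors used MAS5, per the submitters' processing notes, with version, scanner and build not given in the sources used here. Before any step below, the trimmed mean, leaving out 2% at each end, was 500.0 on every array, and that scaling was kept. It can spread a shift of many genes over the others.

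Probe sets were named from the platform's annotation: 34958 had exactly 1 symbol, 932 had several and 9211 were not listed. All 17 member probe sets matched RefSeq by Entrez identifier. From the deposited signals, log2 ratios were taken after a floor at each array's 50th percentile, and a ratio with 1 signal under the floor is a bound. The probe set with the highest mean signal stood for its gene, and 11617 genes at or above the floor on at least 1 array were compared. Size alone, at least 2-fold, was counted, since 1 array per group allows no test.

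The members and lists were chosen with earlier results of these data known. Named genes were all members, the eIF2alpha kinases, Ppp1r15b, paralogs and, per list and comparison, up to 2 genes with the largest ratio among those at or above the 75th percentile on the brighter array whose compared probe sets had the same sign. Scaling, floor, log offset, choice of probe set, filter and fold were varied. The calculations, in Python 3.11.15 with pandas 2.3.3, were tested on simulated data.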

Additional observations from a re-analysis of the deposited data

How the results depend on the processing

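No paired analysis was possible because each group had 1 array. The median log2 ratio of the members for Q84E over wild-type, 0.28, became 0.14 with a common median and 0.38 with the filter at the 75th percentile, which leaves out Ddit3. For Q84E over parental it was 0.42 and became 0.28 with a common median, and for wild-type over parental it ran from -0.039 to 0.061. These medians are those of a single gene or of 2 middle genes and have no error of their own. Counting from 1.5-fold instead of 2-fold, 3 members were higher (Ddit4, Sesn2 and Chac1) and 1 lower (Ddit3) for Q84E over wild-type. Of all 11617 compared genes, 678 were higher and 229 lower at that cut-off. In the comparison of wild-type with parental cells, the count of 1 member higher became 0 with log2(signal + 50) and with the mean of all probe sets. It also became 0 without probe sets whose names end in _s_at, _x_at or _a_at. In the last setting it became 1 instead of 2 for Q84E over parental, because Nupr1 has no other kind. Of 234 alternative log2 ratios of members, 5 moved by more than the error, all in Atf4 and Asns. Of 294 alternative counts in the other lists, 30 differed from their main count by over 1.5 times, within a range of 0 to 3. Over all genes, the 122 higher and 37 lower for Q84E over wild-type became 480 and 344 with no floor and 25 and 9 with the filter at the 75th percentile. Dim probe sets, such as those of Atf3 and the dimmer one of Ddit3, are limited by their signal.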
